A study of Mus musculus with 203 samples.

Results

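The 20 libraries described here are the airway and the parenchyma samples of control mice at 11 weeks, 10 of each, out of 160 libraries taken at 11 weeks and 43 taken at 3 weeks in the series. They were chosen by their titles, which name the compartment (Airway or Parenchyma), the time in weeks (11) and the exposure (PBS.AIR). The series profiled both compartments of the mouse lung by bulk RNA sequencing in a model of asthma and chronic obstructive pulmonary disease overlap, in which house dust mite extract (HDM), cigarette smoke and dexamethasone were given singly and together. All 20 libraries came from female Balb/C mice aged 18 to 20 weeks, the age given for every group of the series. These mice received phosphate buffered saline (PBS) by the nose on 5 days a week for 3 weeks and then 3 times a week from week 4 to week 11. They breathed normal air while other groups were exposed to smoke on 5 days a week for 8 weeks, received no dexamethasone and carried no deleted gene or transgene. Airway and parenchyma were parted by blunt dissection under a microscope, so each sample is a piece of tissue and not a sorted cell type. The comparison asks how far the conducting airway wall and the gas-exchange tissue differ in gene expression in mice that had no allergen, smoke or drug.

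The conducting airways are tubes lined by ciliated cells, which beat mucus upwards, and by secretory club and goblet cells, with basal cells as their progenitors. Smooth muscle, cartilage, glands, nerves and a fibrous coat surround this epithelium. The parenchyma is made of alveoli, where thin type I cells and surfactant-producing type II cells face a dense net of capillaries held by alveolar fibroblasts. In mice, heart-like muscle sheathes the large pulmonary veins, and fat, mesothelium and lymph nodes lie close to the main bronchi.

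Estimated counts summed to 23368647 to 34962460 per airway library (median 29779568.5) and 22011675 to 29773989 per parenchyma library (median 26386465.5). Levels are given in CPM, counts scaled to the size of the library with TMM factors, which correct for its composition. A log2 difference is airway minus parenchyma from limma-voom, with its standard error (SE), and a gene was called where its Benjamini-Hochberg adjusted p was under 0.05 and its log2 difference was at least 1 in size. The share of reads from Gm42418, an RNA that overlaps ribosomal RNA, was 0.117 to 0.585% in airway and 0.142 to 2.82% in parenchyma. Mitochondrially encoded genes took 4.32 to 9.06% of airway and 3.51 to 4.99% of parenchyma counts. In tissue samples, fewer cells of a type and less RNA per cell cannot be told apart.

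The labelled tissues were checked by markers. Summed CPM of the club and ciliated cell lists was higher in every airway than in every parenchyma library. That of the alveolar type I list was higher in every parenchyma library. Sums of the basal cell, cartilage and alveolar type II lists overlapped, so these lists did not separate every library. The basal cell sum ran against the label, with medians of 524.7 CPM in airway and 679.6 CPM in parenchyma. Markers of each compartment were also present in the other. Type I markers summed to 3929 to 11316 CPM in airway against 15335 to 17550 CPM in parenchyma, and club markers summed to 21033 to 36863 CPM in parenchyma against 51954 to 84940 CPM in airway. The airway libraries were also the more uneven group. On the first principal component of the 500 most variable genes, which held 87.9% of the variance, they spread from 15.99 to 66.09 while parenchyma lay between -47.53 and -39.78. Among the airway libraries, X5 stood apart by secretory, squamous and mesothelial genes and X65 by lymphocyte genes. Among the parenchyma libraries, X6 stood apart by red blood cell and type II genes, X126 by antibody genes and X166 by neutrophil genes.

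Of 18250 genes tested, 2448 were higher in airway, 13.4% of all, and 495 were higher in parenchyma, 2.71% of all. By the adjusted p alone the split was nearer to even, with 4798 genes higher in airway (26.3%) and 5496 higher in parenchyma (30.1%). The median log2 difference of called genes was 2.02 in the airway direction and -1.14 in the parenchyma direction, beside -0.03 over all genes tested. A log2 difference of 2 or more was reached by 1244 called airway genes, of 4 or more by 271 and of 6 or more by 65. On the parenchyma side 3 called genes reached -2 or less, and they are named here after their values were seen: Grm5 at -2.001, Gm13655 at -2.23 and Gm28439 at -3.92. Gm28439 is a pseudogene resembling mitochondrial sequence, so its reads may belong to near copies, and it did not pass by edgeR's quasi-likelihood test (-1.498) or DESeq2 (-1.47). Groups did not overlap for 1612 called airway genes and 212 called parenchyma genes, against 10.9% and 5.42% of all genes whose groups did not overlap in those directions. In 278 of the called airway genes no parenchyma library held more than 3 counts. The reverse held for 1 gene, Gm5416, which did not pass the adjusted p in most fits with 1 library left out, at -1.39 without X5 and -1.33 without X86 for example. The parenchyma count rested in part on one library, since it was 321 without airway library X5, and in part on the limit of 1, since most parenchyma differences lay close to it.

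**Figure D1:**
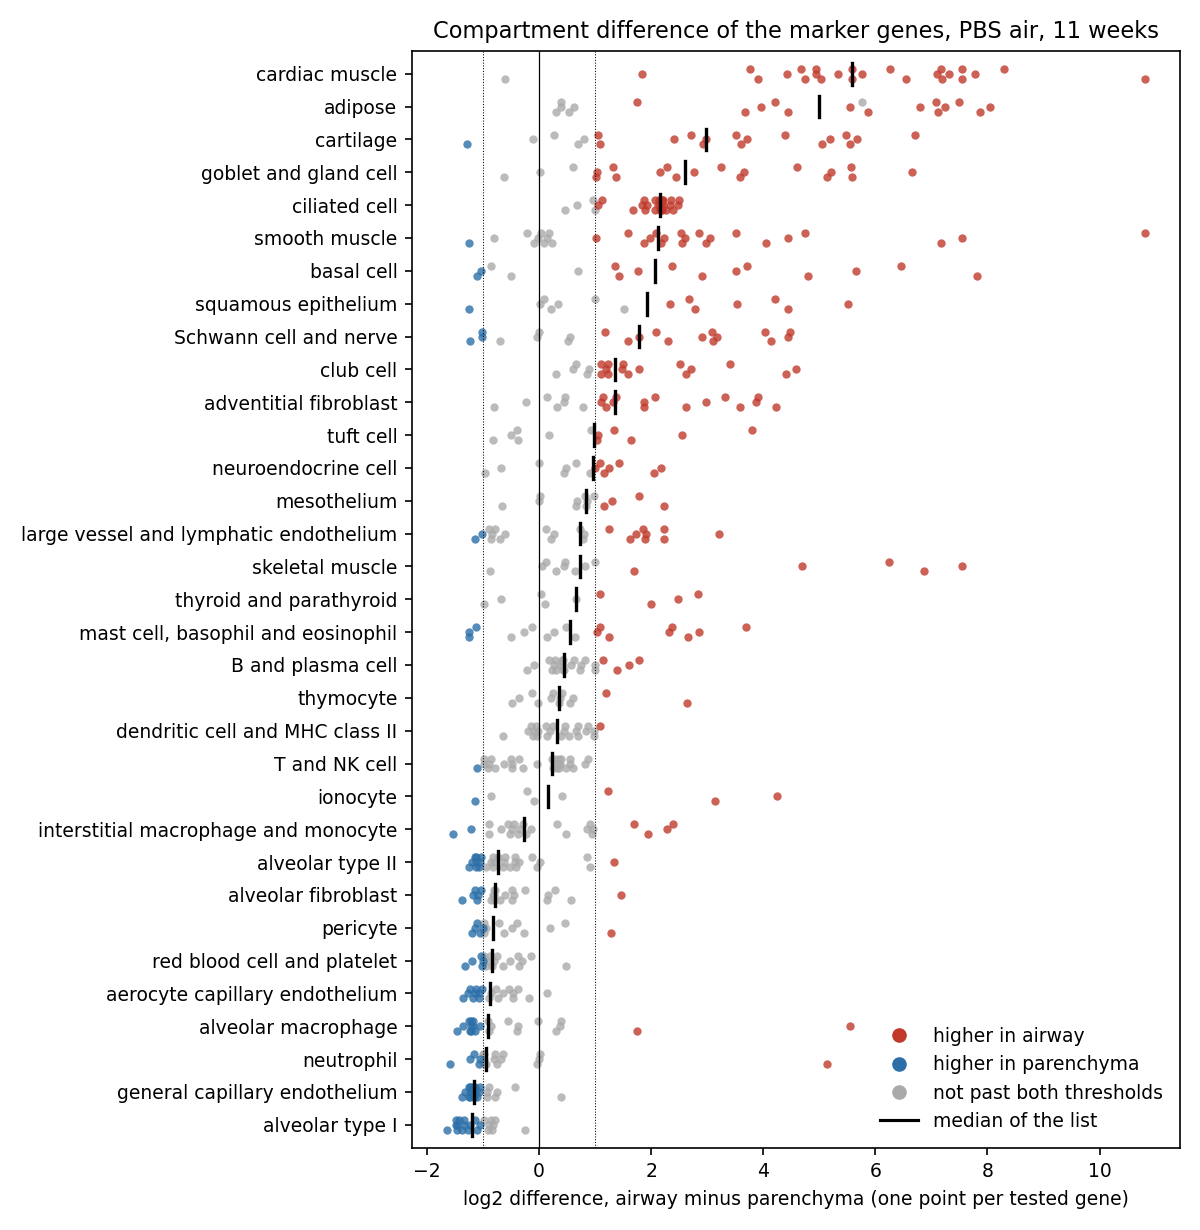
Log2 difference (airway minus parenchyma) of every tested member of the cell type lists, 1 row of points per list, with the list median as a bar. Red and blue points are genes called higher in airway and in parenchyma, and dotted lines mark -1 and 1. Cardiac and adipose lists reach far to the airway side, with medians of 5.59 and 4.99, while the type I list runs from -1.64 (Igfbp2) to -0.25 (Timp3).

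The plot of members by list shows how unlike the directions were in size. Airway calls ran over a wide scale, and the most negative list medians were those of the alveolar type I list at -1.19 and the general capillary list at -1.16.

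Measured per length in TPM, counts divided by the length of the gene's exons and scaled to a fixed total, secretoglobin 1a1 led both compartments. Scgb1a1, the main secretory protein of club cells, on chromosome 19 from 9083636 to 9087958 (GRCm38), averaged 209322 ± 24732 TPM in airway and 107431 ± 14248 TPM in parenchyma (SD, n = 10). Sftpc, the hydrophobic surfactant protein C of type II cells, on chromosome 14 from 70520949 to 70524081, came second in both, at 15495 ± 8398 TPM in airway and 36279 ± 3207 TPM in parenchyma. The secretory genes Bpifa1, Scgb3a1 and Scgb3a2 stood among the 10 highest in airway at 7712, 6419 and 5809 TPM, and reached 106.8, 379 and 1070 TPM in parenchyma. Lyz2, a lysozyme of macrophages and type II cells, averaged 7637 TPM in airway and 13515 TPM in parenchyma. TPM used the union of exons of each gene, and the use of the longest transcript moved 7 of these 20 means by more than 1 SD without changing which gene led.

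Club cell genes were higher in airway, in 15 of 20 tested members with none called the other way, beside 13.4% and 2.71% of all genes. The list median was 1.36, and the groups of 14 members did not overlap. Scgb1a1 ran from 39213 to 56238 CPM in airway (median 51153) and from 15072 to 28221 CPM in parenchyma (median 21352), a log2 difference of 1.22 ± 0.16 (SE, adjusted p = 3e-11). Every airway library lay above every parenchyma library. Scgb3a2, a secretoglobin of airway epithelium, had 1256 to 6895 CPM in airway (median 2423) and 287 to 512 CPM in parenchyma (median 398), a difference of 2.63 ± 0.23 (adjusted p = 2e-20). Scgb3a1, which marks secretory cells of larger airways, had 820 to 5643 CPM in airway (median 1362) and 33.97 to 290 CPM in parenchyma (median 71.8), a difference of 4.41 ± 0.32 (adjusted p = 9.7e-26). The groups were apart for both, and the highest airway value of both was that of X5. The steps between these secretoglobins were therefore unequal, with the smallest difference for the most abundant one.

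Enzymes that handle inhaled chemicals, many of them known from club cells, were called toward airway. Of 40 tested genes of oxidant and drug metabolism, 18 were called higher in airway and none in parenchyma, with a median of 0.85. Cyp2f2, the cytochrome P450 that marks club cells, had 2594 to 4948 CPM in airway (median 3990) and 1094 to 1524 CPM in parenchyma (median 1379), a difference of 1.49 ± 0.13 (adjusted p = 5.2e-21). Cyp2a5, a P450 that oxidizes nicotine and coumarin, had 192.1 to 1866 CPM in airway (median 699) and 8.81 to 70.8 CPM in parenchyma (median 29.6), a difference of 4.58 ± 0.41 (adjusted p = 1.6e-19). Neither gene's groups overlapped. Other enzymes called in the same direction were the alcohol dehydrogenase Adh7 (4.08), the aldehyde dehydrogenase Aldh3a1 (2.60) and the glucuronosyltransferase Ugt1a6a (1.502). Cyp4a12b (5.12) has close copies among the Cyp4a genes, so its reads are uncertain. Other members went the other way by the adjusted p without reaching the limit of 1, with Fmo1 at -0.91 and Cyp2b10, a P450 inducible by foreign compounds, at -0.49. Cyp2b10 did not pass (-0.35) when 5 libraries that stand apart in summed marker levels were left out (X5, X65, X6, X126 and X166).

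Ciliated cell genes lay close together. All 30 tested members were higher in airway by the adjusted p, 26 of them were called and the median was 2.15. The middle 50% of the members lay between 1.85 and 2.21. Foxj1, the master regulator of motile cilia, on chromosome 11 from 116330704 to 116335399, had 123.995 to 314 CPM in airway (median 196.04) and 31.7 to 58.1 CPM in parenchyma (median 48.4), a difference of 2.17 ± 0.16 (adjusted p = 1.4e-24). Airway and parenchyma libraries did not overlap. Dnah5, a heavy chain of the outer dynein arm, had 87.7 to 255 CPM in airway (median 163.1) and 23.5 to 38.7 CPM in parenchyma (median 31.6), a difference of 2.40 ± 0.18 (adjusted p = 1.4e-24). Tekt1 (2.13) and Ccdc39 (2.08), which build the axoneme and its ruler, lay close to it. Mcidas (1.06) and Ccno (1.12), which drive basal body production in cells that are becoming multiciliated, were called with overlapping groups. Rfx3 (0.96) and Rfx2 (0.68), transcription factors of ciliary genes, passed the adjusted p below the limit of 1. They bind the X-box, a motif of the promoters of many ciliary genes. In the 250 bases before each RefSeq gene start (GRCm38.p6), searched on both strands, a match to the X-box stood in 8 of the 26 ciliated list genes that matched the promoter table (30.8%), in 402 of all 27025 genes of the table (1.49%) and in 1.54% of the 12926 tested genes matched to it. None of the other 11 lists searched held one. A gene was counted once however many matches it had. The stretches below show 5 of the 8 genes, with the match in capitals and the flanking bases in lower case, 5′ to 3′ on the strand of the gene.
Dnaic1 (chr4:41569755-41569793, plus strand): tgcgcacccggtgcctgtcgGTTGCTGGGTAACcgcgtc
Dnaic2 (chr11:114727366-114727418, plus strand): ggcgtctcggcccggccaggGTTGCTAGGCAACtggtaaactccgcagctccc
Dynlrb2 (chr8:116504944-116504996, plus strand): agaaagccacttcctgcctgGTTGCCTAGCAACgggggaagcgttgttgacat
Hydin (chr8:110266936-110266976, plus strand): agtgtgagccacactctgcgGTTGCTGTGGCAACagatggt
Spag16 (chr1:69826847-69826900, plus strand): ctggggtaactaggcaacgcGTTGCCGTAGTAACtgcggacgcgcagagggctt

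These genes encode dynein chains (Dnaic1, Dnaic2, Dynlrb2) and central apparatus proteins (Hydin, Spag16) of the cilium. Their log2 differences were 1.88, 2.22, 1.83, 2.20 and 2.36, and the groups of none of them overlapped. The 5 matches ended between 7 and 90 bases before the start. The remaining genes with a match were Ccno, Cfap44 (2.20) and Lrrc23 (1.93). A match is a description of the letters and says nothing of binding.

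Goblet and gland cell genes were higher in airway for 17 of 20 tested members, with a median of 2.60. Bpifa1, a surfactant-like defence protein of the upper airways, on chromosome 2 from 154142880 to 154149219, had 1679 to 20715 CPM in airway (median 3924) and 14.8 to 206 CPM in parenchyma (median 36.98), a difference of 6.66 ± 0.50 (adjusted p = 1.4e-24). The highest airway value was that of X5, and no libraries overlapped. Muc5b, the main gel-forming mucin of healthy airways, had 75.02 to 318 CPM in airway (median 146.2) and 6.78 to 36.7 CPM in parenchyma (median 13.2), a difference of 3.58 ± 0.30 (adjusted p = 5.9e-22). Muc5ac, the inducible mucin, stayed low at 3.60 to 40.2 CPM in airway (median 5.74) and 0.590 to 2.22 CPM in parenchyma (median 1.09), a difference of 2.76 ± 0.55 (adjusted p = 6.1e-06). The mucins did not overlap between compartments. Of the wider list of 34 defence proteins of the lining fluid, 15 were called higher in airway and 3 in parenchyma, with a median of 0.35. The antimicrobial lectin Reg3g (5.59), lactoferrin Ltf (5.13) and the immunoglobulin transporter Pigr (2.16) were on the airway side. The parenchyma calls were the chitinase-like Chil3 (-1.21), S100a9 (-1.07) and Camp (-1.58), genes of macrophages and neutrophils.

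Basal cell genes were called higher in airway for 11 of 16 tested members and in parenchyma for 2, with a median of 2.07. Krt5, the keratin that defines basal cells, on chromosome 15 from 101707070 to 101712898, had 4.69 to 87.95 CPM in airway (median 19.3) and at most 0.455 CPM in parenchyma (median 0.0536), a difference of 7.82 ± 1.62 (adjusted p = 1.3e-05) that did not pass when only genes of at least 10 CPM were fitted (7.84). Trp63, the transcription factor that maintains basal cells, had 3.53 to 17.1 CPM in airway (median 7.67) and 0.256 to 0.915 CPM in parenchyma (median 0.700), a difference of 3.52 ± 0.46 (adjusted p = 1.9e-11). Both were higher in all airway libraries. The summed level of the list did not follow its members, at 345 to 640 CPM in airway and 593 to 780 CPM in parenchyma. It was dominated by the adhesion molecule Icam1 (-1.03), by Pdpn (-0.85) and by the laminin Lamb3 (-1.10), which alveolar cells also express.

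Markers of rare epithelial cells were low in both compartments. Of the tuft cell list 6 of 12 tested members were called in airway and none in parenchyma (median 0.98), with the taste channel Trpm5 at 0.161 to 4.60 CPM in airway and 0.0411 to 0.541 CPM in parenchyma. Of 14 tested neuroendocrine genes, 7 were called in airway (median 0.96), while the peptide gene Calca had a difference of 0.65 (limma adjusted p = 0.14) and passed by edgeR's test (0.68). The ionocyte list had 3 airway calls and 1 parenchyma call in 8 tested members. Atp6v1b1, a proton pump subunit, was at 3.14, and the chloride channel Cftr, at 14.0 to 37.3 CPM in airway (median 25.8) and 36.6 to 52.9 CPM in parenchyma (median 43.8), was at -0.85 ± 0.16 (adjusted p = 3.1e-06). Foxi1, which defines ionocytes, was too low to be tested, with at most 9 counts in an airway library.

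Type I cell genes were higher in parenchyma. Of 22 tested type I genes 14 were called higher in parenchyma and none in airway, and 18 did not overlap. Ager, the receptor for advanced glycation end products and the best known type I marker, on chromosome 17 from 34597862 to 34600936, had 404 to 1805 CPM in airway (median 1290) and 2452 to 2961 CPM in parenchyma (median 2714), a difference of -1.43 ± 0.17 (adjusted p = 1.7e-12). All parenchyma libraries were higher. Rtkn2 was at -1.45 ± 0.19, the water channel Aqp5 at -0.79 ± 0.12 and the cofactor Hopx at -1.05 ± 0.15. The basement membrane collagens Col4a3 (-1.47) and Col4a4 (-1.37), the growth factor carrier Igfbp2 (-1.64), the proteoglycan Spock2 (-1.46) and the capillary growth factor Vegfa (-1.27) were on the same list. Col4a3 was lowest among parenchyma libraries in X6, at 181.05 CPM, and still above every airway value.

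Type II genes differed less. Of 29 tested members 9 were called in parenchyma and 1 in airway, and the median was -0.72. Sftpc had 3532 to 15039 CPM in airway (median 8298) and 11943 to 21859 CPM in parenchyma (median 15422), a difference of -1.19 ± 0.18 (adjusted p = 7.1e-09), with overlap between the groups. Sftpa1 (-0.60), Sftpb (-0.83) and Sftpd (-0.43), the other surfactant proteins, passed the adjusted p without reaching the limit, and Sftpd did not pass with quality weights (-0.31) or without the 5 libraries named above (-0.29). The lamellar body protein Lamp3 (-1.14), the phosphate carrier Slc34a2 (-1.13) and the phospholipid enzyme Lpcat1 (-1.06) were called. The airway call was Retnla (1.34), a secreted protein of type 2 immunity. In the airway libraries the type II sum ran from 16071 CPM in X145 to 42059 CPM in X85, so that X85 lay within the parenchyma range of 35897 to 53170 CPM.

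Capillary endothelium went with the alveoli. Of 25 tested general capillary genes 18 were called higher in parenchyma and none in airway (median -1.16), and of 20 tested aerocyte genes 9 and none (median -0.87). Kit, a growth factor receptor of general capillaries in this tissue, had 32.4 to 131.5 CPM in airway (median 83.5) and 138.95 to 194.7 CPM in parenchyma (median 175.5), a difference of -1.25 ± 0.16 (adjusted p = 2.8e-11). Car4, the carbonic anhydrase of aerocytes, had 33.6 to 143.5 CPM in airway (median 116.5) and 148.8 to 221 CPM in parenchyma (median 202.7), a difference of -1.18 ± 0.21 (adjusted p = 8.5e-07). The groups of both were apart. Esm1, an endothelial proteoglycan on chromosome 13 from 113209659 to 113218098, was the largest called non-overlapping parenchyma difference among protein-coding genes of at least 1 CPM, at -1.70 ± 0.24, with 5.77 to 42.3 CPM in airway and 48.4 to 86.8 CPM in parenchyma. Large vessels and lymphatics differed from this, with 9 of 23 tested members called in airway and 2 in parenchyma (median 0.74). Prox1, the lymphatic master regulator, was at 1.91, the lymphatic protein Mmrn1 at 1.85, and the venular chemokine receptor Ackr1 at 2.24, while the arterial genes Efnb2 (-1.14) and Hey1 (-1.02) were on the parenchyma side. Also on this list, Lyve1 was at -0.88 and Vwf at 0.12 (adjusted p = 0.57).

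The fibroblast lists divided by position. Alveolar fibroblast genes were called in parenchyma for 6 of 23 tested members and in airway for 1 (median -0.78), with Tcf21 (-1.03), Npnt (-1.18) and the fibroblast growth factor receptor Fgfr4 (-1.37) in parenchyma and Gdf10 (1.47) in airway. Adventitial fibroblast genes were called in airway for 15 of 22 and never in parenchyma (median 1.35). Dcn, the collagen-binding proteoglycan decorin, had 396 to 1282 CPM in airway (median 676) and 40.8 to 54.2 CPM in parenchyma (median 47.2), a difference of 3.88 ± 0.27 (adjusted p = 1.9e-26). Pi16, which marks fibroblasts around vessels and bronchi, was at 3.31 and the ferritin receptor Scara5 at 3.91. Neither gene overlapped between compartments. Pericyte genes went with parenchyma, 5 of 16 against 1 (median -0.82), with Trpc6 at -1.13 and Higd1b at -1.05.

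Smooth muscle genes were called in airway for 20 of 30 tested members and in parenchyma for 1 (median 2.13). Acta2, smooth muscle actin, on chromosome 19 from 34241090 to 34255590, had 117.9 to 468 CPM in airway (median 290) and 22.1 to 40.3 CPM in parenchyma (median 29.5), a difference of 3.05 ± 0.23 (adjusted p = 9.9e-25). Cnn1, calponin of mature contractile cells, had 41.5 to 236 CPM in airway (median 128.7) and 2.91 to 7.27 CPM in parenchyma (median 5.07), a difference of 4.44 ± 0.38 (adjusted p = 4.6e-21). Lgr6, a receptor for R-spondins that marks smooth muscle of the airways, had 19.6 to 68.01 CPM in airway (median 34.999) and 1.59 to 2.84 CPM in parenchyma (median 2.20), a difference of 4.06 ± 0.41 (adjusted p = 2.6e-16). For all 3 genes every airway library was higher. The parenchyma call was Foxf1 (-1.24), a transcription factor that capillaries and fibroblasts also use. Flna (0.15), Smtn (0.18) and Myl6 (0.10), cytoskeletal proteins of many cell types, did not pass the test. The largest members of the list, Nppa, Pln (7.54), Casq2 (7.17) and Ldb3 (4.75), are also expressed in heart muscle.

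Promoters of contractile genes often hold a CArG box, the site of serum response factor. Searched in the same way, it stood in 3 of 25 smooth muscle (12%), 3 of 21 cardiac (14.3%) and 2 of 14 skeletal muscle genes (14.3%), beside 439 of 27025 genes (1.62%) and 190 of the 12926 tested (1.47%). It also stood in 2 of 18 type I genes (11.1%), Ager and Hopx, and in 1 of 14 club cell genes, Cbr2. The 3 stretches below are a smooth muscle light chain, cardiac actin and the atrial light chain, with the match in capitals.
Myl9 (chr2:156775283-156775332, plus strand): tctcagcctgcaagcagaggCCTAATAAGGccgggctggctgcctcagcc
Actc1 (chr2:114052893-114052942, minus strand): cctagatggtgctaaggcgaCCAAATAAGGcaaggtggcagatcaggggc
Myl7 (chr11:5898814-5898863, minus strand): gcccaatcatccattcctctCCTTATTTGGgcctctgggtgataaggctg

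Log2 differences were 2.23 for Myl9, 4.94 for Actc1 and 7.11 for Myl7. The matches in Actc1 and Myl7 ended 38 and 52 bases before the start.

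Heart-type muscle genes gave the largest differences of all lists. Of 25 tested members 24 were called in airway with none overlapping, and the median was 5.59. Their sum was 546 to 5429 CPM in airway and 117.5 to 162.1 CPM in parenchyma. Myh6, the atrial myosin heavy chain, had 102.7 to 1185 CPM in airway (median 638) and 14.3 to 28.9 CPM in parenchyma (median 22.6), a difference of 4.42 ± 0.34 (adjusted p = 1.8e-23). Nppa, atrial natriuretic peptide, on chromosome 4 from 148000722 to 148002079, had 16.1 to 365 CPM in airway (median 81.2) and at most 2.09 CPM in parenchyma (median 0), a difference of 10.81 ± 3.00 (adjusted p = 0.0012). The highest parenchyma value was that of X166, and the difference without X166 was 11.41. It did not pass when only genes of at least 10 CPM were fitted (10.83). Kcnj3, an atrial potassium channel, stayed at or below 3 counts in every parenchyma library and was at least 162.5-fold higher in airway. Myoglobin (Mb, 9.32), sarcolipin (Sln, 8.29), Hrc (7.84) and Smpx (7.77) were the next largest muscle genes. The summed cardiac level of the airway libraries varied 9.94-fold, from X85 to X185.

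Fat genes were the second such list. Of 20 tested members 14 were called in airway and none in parenchyma (median 4.99). Adipoq, the adipocyte hormone adiponectin, on chromosome 16 from 23146536 to 23158028, had 29.5 to 230 CPM in airway (median 53.3) and 0.0338 to 0.606 CPM in parenchyma (median 0.305), a difference of 7.87 ± 1.48 (adjusted p = 1.8e-06). Leptin (Lep) was at least 46.4-fold higher in airway. Ucp1, the heat-producing protein of brown fat, ranged from 0.109 to 340 CPM in airway (median 10.9) and up to 0.637 CPM in parenchyma. Its groups overlapped, and its difference of 5.77 ± 4.03 did not pass by limma (adjusted p = 0.22), while it passed by edgeR's quasi-likelihood test (8.77) and DESeq2 (8.85). The sum of the fat list was highest in X5 at 5409 CPM, with X145 at 4458 CPM and X125 at 3881 CPM, and lowest in X45 at 984 CPM.

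**Figure D2:**
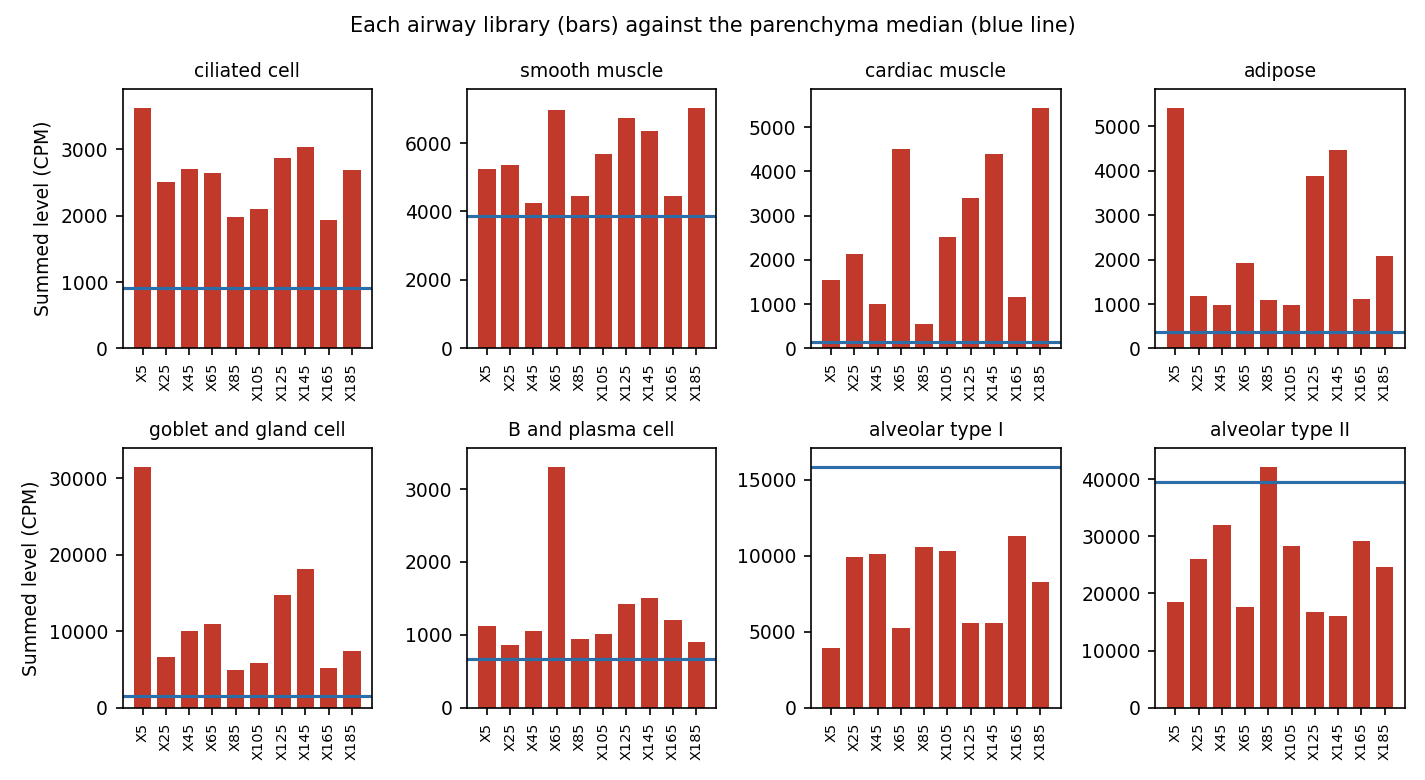
Summed CPM of selected cell type lists in each of the 10 airway libraries, named by the code in their titles (bars from 0), with the parenchyma median as a blue line. The libraries X5, X125 and X145 have the highest fat sums, X185 has the highest cardiac sum at 5429 CPM, and the ciliated sum varies less, from 1927 to 3617 CPM.

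The plot of airway libraries shows that the lists varied unevenly from one dissection to the next. The highest library exceeded the lowest 1.88-fold for ciliated genes and 1.64-fold for club cell genes, 5.50-fold for fat genes and 6.34-fold for goblet genes. The 3 libraries with the highest fat sums also had the highest goblet sums. Cartilage genes were called in airway for 16 of 21 tested members and in parenchyma for 1 (median 2.98). Acan, the aggregating proteoglycan of cartilage, had 0.466 to 13.8 CPM in airway (median 2.501) and no count in any parenchyma library, and was at least 31.7-fold higher in airway. Col2a1, the fibrillar collagen of cartilage, had 0.0897 to 7.38 CPM in airway (median 1.24) and at most 0.127 CPM in parenchyma, a difference of 4.40 ± 0.84 (adjusted p = 2.2e-06), with overlap. Nerve and Schwann cell genes were called in airway for 13 of 21 and in parenchyma for 3 (median 1.78), with the glial factor Sox10 at least 10.6-fold higher. The parenchyma calls Scn7a (-1.02), Prx (-1.24) and Pmp22 (-1.01) are genes that lung endothelium and fibroblasts also express, and the summed level of the list was higher in parenchyma without overlap, at 1435 to 1707 CPM against 609.7 to 1257 CPM in airway. Mesothelial genes had 4 airway calls in 13 tested (median 0.84), among them Msln (1.78), with a sum of 894 CPM in X5 against 352 to 637 CPM in the other airway libraries. Squamous genes had 7 airway calls and 1 parenchyma call in 14 tested (median 1.93), with Pax9, a factor of the pharynx and upper airway lining, at 4.45. Skeletal muscle genes had 5 airway calls in 14 (median 0.73). The fast myosins Myh1, Myh2 and Myh4 were too low to be tested. Thyroid genes had 4 airway calls in 9 tested members (median 0.65). Thymocyte genes had 2 in 13 (15.4%, median 0.35), near the 13.4% of all genes. The defining genes Pax8, Rag2 and Ptcra were too low to be tested.

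**Figure D3:**
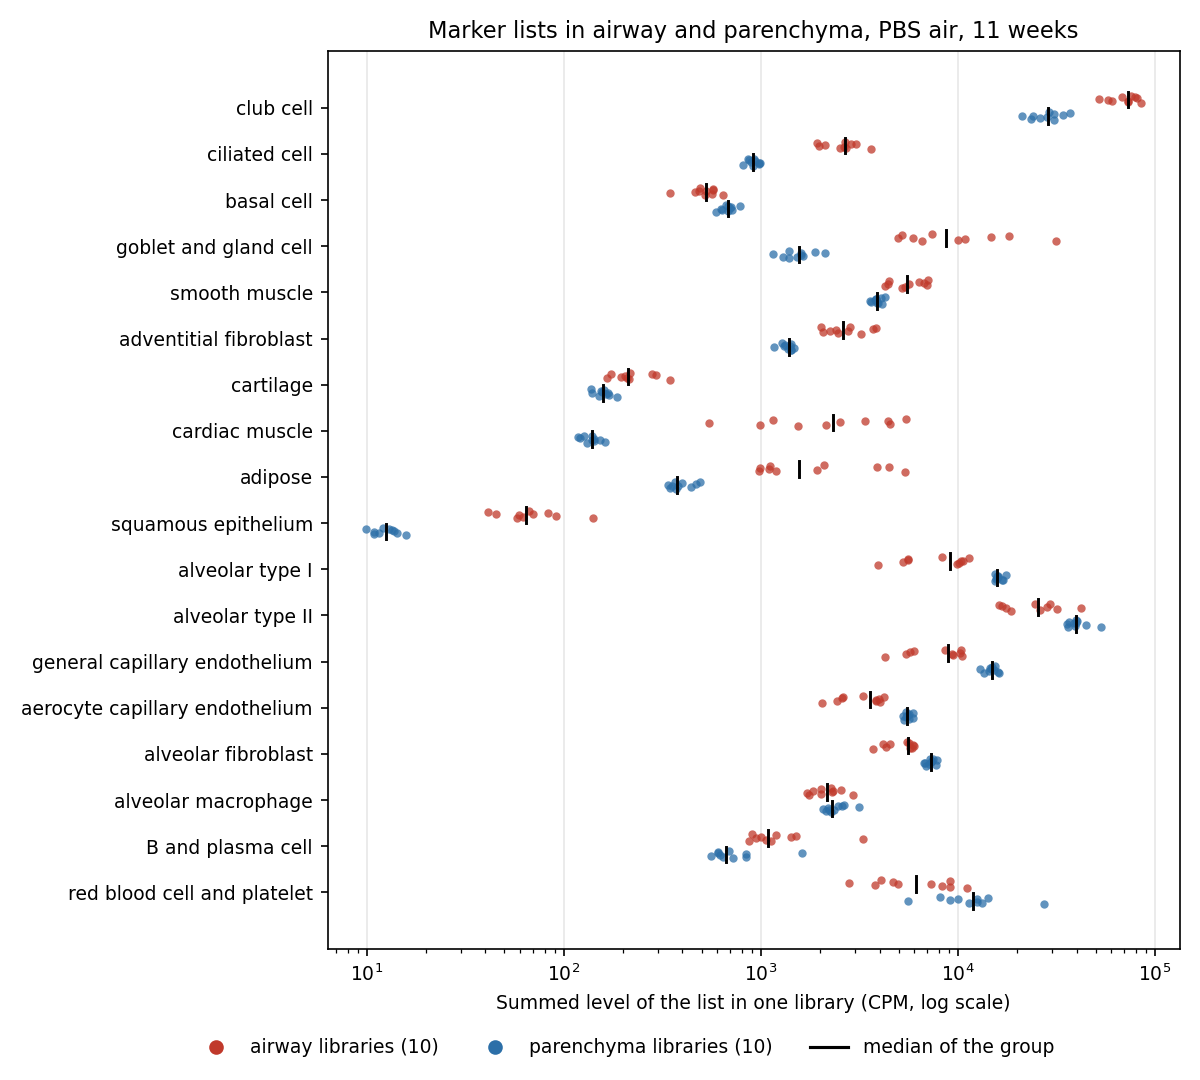
Summed CPM of the cell type lists in each of the 20 libraries, airway and parenchyma side by side, on a log scale with the median of each group as a bar. Airway points lie wholly above parenchyma for club, ciliated, goblet, cardiac and adipose lists and wholly below for type I and both capillary lists.

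In the plot of list sums, the type II, basal, smooth muscle, cartilage, alveolar macrophage, B cell and red blood cell lists overlap. Among immune cells, alveolar macrophage genes went with parenchyma, 11 of 23 against 2 (median -0.90). Siglecf, a sialic acid receptor of these cells, had 3.14 to 16.1 CPM in airway (median 7.09) and 11.5 to 22.6 CPM in parenchyma (median 18.0), a difference of -1.25 (adjusted p = 2.9e-06), and Ear1, a ribonuclease, was at -1.46. The 2 airway calls of this list, Fabp4 (5.54) and Cidec (1.75), are also genes of fat. Interstitial macrophages and monocytes had 4 airway calls in 24 (16.7%), near the 13.4% of all genes. They had 2 parenchyma calls, beside 2.71% of all genes (median -0.26). By the adjusted p alone 8 were higher in airway and 9 in parenchyma. Folr2 (2.29), Cd163 (1.95) and F13a1 (1.69), genes of macrophages near vessels and nerves, were higher in airway, and Cd300e (-1.54) and Ace (-1.21), genes of patrolling monocytes and, for Ace, of capillaries, in parenchyma. The fourth airway call was Eno3 (2.40), an enolase that muscle also expresses.

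Antigen presentation genes gave few calls. Of 24 dendritic cell and MHC class II genes 9 passed the adjusted p toward airway and 1 toward parenchyma, and 1 was called, Xcr1 (1.09) of cross-presenting dendritic cells, and H2-Aa was at 0.15 (adjusted p = 0.43). T and NK cell genes gave 1 call in 30, the granzyme Gzma in parenchyma (-1.11), and the T cell receptor subunit Cd3e was at 0.35 (limma adjusted p = 0.30) and passed by DESeq2 (0.58). B and plasma cell genes gave 4 airway calls in 24 (16.7%), near the 13.4% of all genes. These were Jchain (1.79), Ighm (1.602), Igkc (1.398) and Tnfrsf17 (1.15), all of which plasma cells use. Tnfrsf17 did not pass without parenchyma library X86 (0.92). The airway library X65 held 3297 CPM of that list, against 866 to 1503 CPM in the other airway libraries. Mast cell, basophil and eosinophil genes had 8 airway calls and 3 parenchyma calls in 18. The mast cell proteases Tpsb2 (3.69), Cpa3 (2.66) and Mcpt4 (2.32) were higher in airway, whereas Kit, Gata2 and Siglecf on that list are shared with endothelium or macrophages. Neutrophil genes had 5 parenchyma calls and 1 airway call in 19 (median -0.94), with S100a9 at -1.07, and the airway call was Ltf. The summed level of the list ran the other way, with medians of 906 CPM in airway and 528 CPM in parenchyma and overlapping groups. S100a9 did not pass by DESeq2 (-0.75) or without the 5 libraries named above (-0.64). Red blood cell and platelet genes had 5 parenchyma calls in 19 (median -0.83). Hba-a1, a hemoglobin chain with a near-identical copy, was at -1.04 (adjusted p = 0.022) and did not pass without airway library X125 (-0.92).

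Of 37 tested chemokines, 10 were called in airway, beside 13.4% of all genes, and none in parenchyma, beside 2.71% (median 0.41). By the adjusted p alone 12 were higher in airway and 6 in parenchyma. Cxcl17, a mucosal chemokine, had 48.9 to 151.7 CPM in airway (median 78.9) and 8.40 to 19.8 CPM in parenchyma (median 12.9), a difference of 2.67 (adjusted p = 1.4e-20), with no overlap. Ccl28 (2.84), which draws antibody-secreting cells to mucosa, the eotaxin Ccl11 (2.99), Ccl20 (1.92) and the B cell attractant Cxcl13 (2.26) were among the others, and so was Ccl21a (1.90), which has near copies. Cxcl15, a lung chemokine of epithelium, was at -0.72 by the adjusted p alone and did not pass by DESeq2 (-0.54).

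Receptors through which transmitters and drugs act on airway tone were split. Of 42 tested, 10 were called in airway (23.8%, beside 13.4% of all genes) and 4 in parenchyma, beside 2.71% of all genes (median -0.08). The summed level of the list was higher in parenchyma without overlap, at 2586 to 3610 CPM against 1026 to 2296 CPM in airway. Chrm2, the inhibitory muscarinic receptor also found in heart muscle, had 13.8 to 81.6 CPM in airway (median 38.4) and 3.17 to 8.74 CPM in parenchyma (median 6.80), a difference of 2.62 (adjusted p = 2.5e-12). Chrm3, the muscarinic receptor that contracts smooth muscle, was at 0.28 (adjusted p = 0.032) and did not pass without airway libraries X5 (0.24) or X145 (0.23) or parenchyma libraries X6 (0.21), X66 (0.25), X86 (0.27), X106 (0.26) or X186 (0.22), each left out in turn. The substance P receptor Tacr1 (4.24), the alpha receptor Adra2a (2.20), the VIP receptor Vipr1 (2.03) and the prostaglandin receptors Ptger3 (2.37) and Ptgfr (1.54) were called in airway, and the oxytocin receptor Oxtr was at least 10.1-fold higher. The parenchyma calls were Bdkrb2 (-1.24), the natriuretic peptide clearance receptor Npr3 (-1.27), and the adrenomedullin receptor parts Calcrl (-1.13) and Ramp2 (-1.12). Water channels went both ways, with Aqp4 (2.94) and Aqp3 (3.71) higher in airway and Aqp5 (-0.79) and Aqp1 (-0.65) lower. Of the 26 tested genes of ion and fluid transport, 5 were called in airway (19.2%, beside 13.4% of all genes). In parenchyma 2 were called, Slc34a2 and Clic5, beside 2.71% of all genes (median -0.17).

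Matrix genes went both ways. Of 42 tested collagen genes 11 were called in airway and 6 in parenchyma (median 0.20), and of 61 other matrix genes 12 and 5 (median -0.15). The airway shares were 26.2% and 19.7%, beside 13.4% of all genes. The 6 of 42 and 5 of 61 parenchyma calls stand beside 2.71% of all genes, so both directions exceeded the share over all genes. The fibrillar collagens Col1a1 (0.88) and Col3a1 (0.74) were higher in airway by the adjusted p alone. The parenchyma calls were Col4a1 (-1.04), Col4a2 (-1.17), Col4a3 (-1.47) and Col4a4 (-1.37) of basement membranes, Col12a1 (-1.21) and Col13a1 (-1.13). Col10a1, a collagen of calcifying cartilage, had at most 3 counts in each parenchyma library and was at least 64.7-fold higher in airway. The laminin chains Lama3 (-1.12) and Lamb3 (-1.10), of epithelial basement membranes, were called in parenchyma.

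Transcription factors of lung patterning went both ways too. Of 86 tested, 29 were called in airway (33.7%, beside 13.4% of all genes) and 15 in parenchyma, beside 2.71% of all genes (median -0.10). Sox2, the factor of the proximal lung bud, had 30.7 to 80.3 CPM in airway (median 48.8) and 8.04 to 14.4 CPM in parenchyma (median 10.2), a difference of 2.13 (adjusted p = 2.5e-21). Nkx2-1, which specifies lung epithelium and is kept by club and type II cells, had 66.1 to 115.8 CPM in airway (median 89.7) and 122.8 to 152.97 CPM in parenchyma (median 133.3), a difference of -0.66 (adjusted p = 2.7e-08). Both differed without overlap, in opposite directions. Sox9, a factor of the distal bud in development and of cartilage and glands in the adult, was at 2.42 with 1.25 to 4.21 CPM in airway. Gata4 (3.02) and the secretory factor Spdef (2.28) were higher in airway. Foxf1 (-1.24), Tbx3 (-1.20), Hoxa7 (-1.17) and Sox11 (-1.37) were higher in parenchyma.

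Of 68 genes of Wnt, Hedgehog, BMP and FGF signaling, 18 were called in airway (26.5%, beside 13.4% of all genes). In parenchyma 9 were called, beside 2.71% of all genes (median 0.22). Among Wnt ligands Wnt7b (2.54), Wnt11 (1.76) and Wnt2b (1.37) were higher in airway, while Wnt7a (-1.43), Wnt3a (-1.34), Wnt10b (-1.34) and Wnt2 (-1.10) were higher in parenchyma. Wnt7b had 4.72 to 22.9 CPM in airway (median 7.497) and 1.12 to 1.95 CPM in parenchyma (median 1.51), and Wnt7a had 2.88 to 19.2 CPM in airway (median 7.28) and 13.3 to 29.5 CPM in parenchyma (median 23.3). The first pair of groups was apart and the second overlapped. Among the secreted inhibitors of Wnt on the list, Sfrp4 (4.23), Dkk2 (3.21) and Sfrp1 (2.498) were called in airway, with Sfrp5 at least 27.95-fold higher, while Sfrp2 was at 0.45 (adjusted p = 0.16) and Notum, an enzyme that inactivates Wnt, at -0.74 (adjusted p = 1.6e-07). Axin2, a common readout of Wnt signaling, was at -0.75 ± 0.13 (adjusted p = 1.3e-07). The BMP antagonist Grem1 (3.88) and the Hedgehog target Gli1 (1.31) were called in airway and the ligands Bmp6 (-1.25) and Fgf18 (-1.06) in parenchyma. Neurotrophins differed in direction as well, with Ntf3 (1.51) higher in airway and Bdnf (-1.27) and Gdnf (-1.25) higher in parenchyma, in a list of 36 tested genes with 9 airway and 6 parenchyma calls (median -0.37).

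**Figure D4:**
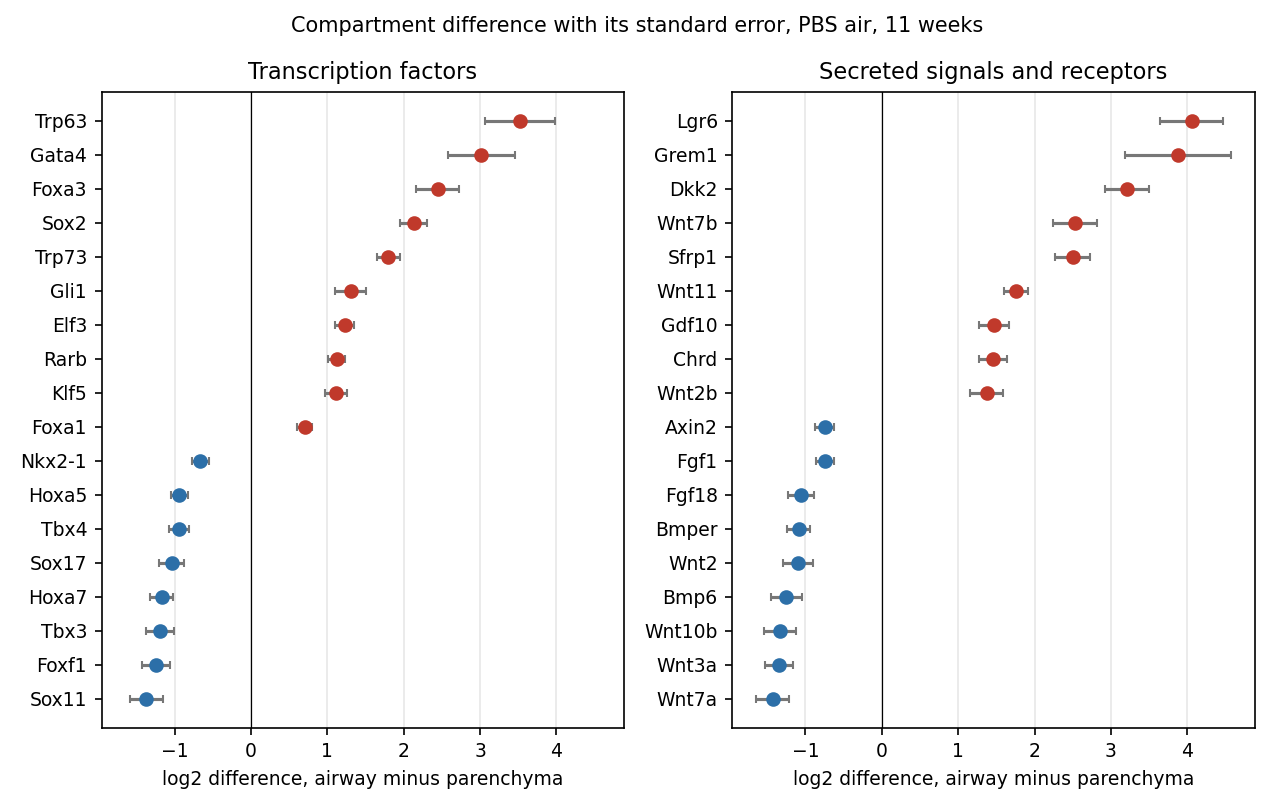
Log2 difference (airway minus parenchyma) with its SE as a line for selected transcription factors (left) and secreted signals and receptors (right), chosen after their values were seen. Red is higher in airway and blue in parenchyma. Members of one family lie on both sides of 0, for example Wnt7b at 2.54 and Wnt7a at -1.43.

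The plot of regulators shows these opposed members side by side. None of 37 tested cell cycle genes was called (median -0.10), and 3 passed the adjusted p by limma. Of these Mcm3, a part of the replicative helicase, was at -0.38, and Mcm4 and the regulator Mybl2 did not pass in every fit that left out 1 library. Immediate early and heat shock genes, which respond to handling of tissue, gave 1 airway call in 28, Nr4a3 (1.33), with a median of -0.14, and Jun was at -0.95. Of 13 mitochondrially encoded subunits, which have nuclear near copies, none was called, 10 passed the adjusted p toward airway and the median was 0.55.

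Spread between libraries was compared gene by gene in 16549 genes, by the absolute deviation of log2 CPM from the group median. The SD was larger in airway in 12109 of them (73.17%), with a median SD of 0.257 in airway and 0.188 in parenchyma. At an adjusted p under 0.05, 38 genes were wider in airway (0.23%) and none in parenchyma, and at an unadjusted p under 0.05 the counts were 2145 and 84. Ucp1 led with an SD of 4.37 in airway and 1.11 in parenchyma, followed by Glycam1, a ligand of lymph node venules, with 3.77 and 0.835. The 38 include 3 genes at 0 in every parenchyma library, Mup10, Klb and Acan, whose spread there was bound to be 0, so that for them the direction was fixed by the filter and is no result. Ucp1 was also very low in parenchyma, where the prior count of 2 added to the counts narrows the spread of log2 CPM. How far this set its direction was not tested. The count of 38 was 12 with a prior count of 0.5, and it ran from 5 to 86 when a library was left out in turn.

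The same comparison was made in the 3-week PBS mice, with 11 airway and 12 parenchyma libraries, in 1 fit over all libraries of the series and 18528 genes. In that fit 1947 genes (10.5%) were called in airway and 424 (2.29%) in parenchyma at 3 weeks. Of 3013 genes called at 11 weeks in this fit, 2006 were called at 3 weeks too (66.58%, or 84.61% of the 2371 called at 3 weeks), and none in the opposite direction. Of the 1007 called at 11 weeks alone, 11.8% passed the test of the difference itself. Over all genes 578 differences were more positive at 11 weeks (3.12%) and 838 more negative (4.52%), of which 87 and 19 were at least 1 in size (0.47% and 0.103%). The 3-week and 11-week mice differ in time, in the number of PBS doses and in the air exposure, and these cannot be told apart. They share no library.

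The ciliated list held genes whose difference was larger at 11 weeks. Their median was 2.12 at 11 weeks and 1.503 at 3 weeks in this fit, and 8 of 30 passed as larger at 11 weeks. The ciliated sum in airway had a median of 2610 CPM at 11 weeks and 2321 CPM at 3 weeks, and that in parenchyma 916 and 1068 CPM. Ccdc17, a coiled-coil protein, averaged 64.99 CPM in airway and 19.3 CPM in parenchyma at 11 weeks, and 63.6 and 42.1 CPM at 3 weeks, a change of the log2 difference by 1.12 ± 0.22 (adjusted p = 0.00036). B3gnt4, a glycosyltransferase, changed by 1.21 and 9130230L23Rik by 1.02 in the same direction. Fgf9, a growth factor of mesothelium and epithelium, averaged 0.881 and 0.362 CPM at 11 weeks and 0.826 and 0.979 CPM at 3 weeks, a change by 1.54, and Rasgrf1, an exchange factor of Ras, changed by 1.2. In all 5 genes the parenchyma mean was lower and the airway mean higher at 11 weeks. On the mesothelial list 5 of 13 members passed as more positive, with medians of 0.80 and -0.33, and on the mitochondrial list 6 of 13, with medians of 0.51 and -0.07. Among negative changes were Wasf3 (-1.06), an actin regulator, and 4 genes whose reads are uncertain because of near copies or shared exons, Rnaset2b (-2.22), Gm20425 (-2.61), Pagr1b (-1.32) and Pcdhgc3 (-1.06). By edgeR's quasi-likelihood test on these 4 groups alone, Rnaset2b (-1.13), Gm20425 (-1.44) and Pagr1b (-1.01) did not pass. On the matrix list 11 of 61 members passed as more negative at 11 weeks.

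In mice given HDM for 11 weeks and exposed to cigarette smoke, with 10 libraries of each compartment, the contrast between airway and parenchyma was smaller. There 891 genes (4.88%) were called in airway and 40 (0.219%) in parenchyma. The difference between the 2 contrasts passed for 1636 genes in the positive (8.96%) and 2068 in the negative direction (11.3%), of which 63 (0.345%) and 1049 (5.75%) were at least 1 in size. The PBS air libraries are in both, so the values are given side by side. The median of the genes called toward airway under PBS air was 2.02 there and 0.80 under HDM and smoke, and that of the parenchyma calls -1.14 and -0.48. These genes were selected on the first value of each pair.

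Ciliated genes had a median of 2.15 under PBS air and 0.75 under HDM and smoke, with 28 of 30 passing as smaller. Their sum in airway had a median of 2610 CPM under PBS air and 1387 CPM under HDM and smoke, and that in parenchyma 916 and 880 CPM. Club cell genes had medians of 1.36 and 0.56 with 15 of 20 passing. The club sum had medians of 71494 and 34218 CPM in airway and 28941 and 26487 CPM in parenchyma. Type I genes had medians of -1.19 and -0.53 with 13 of 22 passing, and here the parenchyma sum was lower, with medians of 16064 and 10963 CPM against 8860 and 7600 CPM in airway. Cardiac genes had medians of 5.59 and 3.56 with 10 of 25 passing, and the smooth muscle list 2.13 and 1.04 with 11 of 30. For goblet genes, at 2.60 and 1.32 with 12 of 20 passing, the parenchyma sum had medians of 1570 and 4243 CPM. The basal median changed less than those above. Basal genes had medians of 2.07 and 1.71, with 4 passing as more positive and 1 as more negative. For a member that was higher in parenchyma under PBS air, a more positive change can also be a narrowing. Medians were larger under HDM and smoke for B and plasma cell genes (0.45 and 0.80) and for mast cell, basophil and eosinophil genes (0.56 and 0.94). Few of their members passed the test of the change, however. Of 24 B and plasma cell genes 1 passed as more positive and none as more negative, and of 18 genes of the mast cell list 1 passed each way. Over all genes 8.96% passed as more positive and 11.3% as more negative. B and plasma cell sums were 1085 and 684 CPM in PBS air airway and parenchyma and 17056 and 9401 CPM under HDM and smoke. The part of such cells in the narrowing of other lists was not tested.

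**Figure D5:**
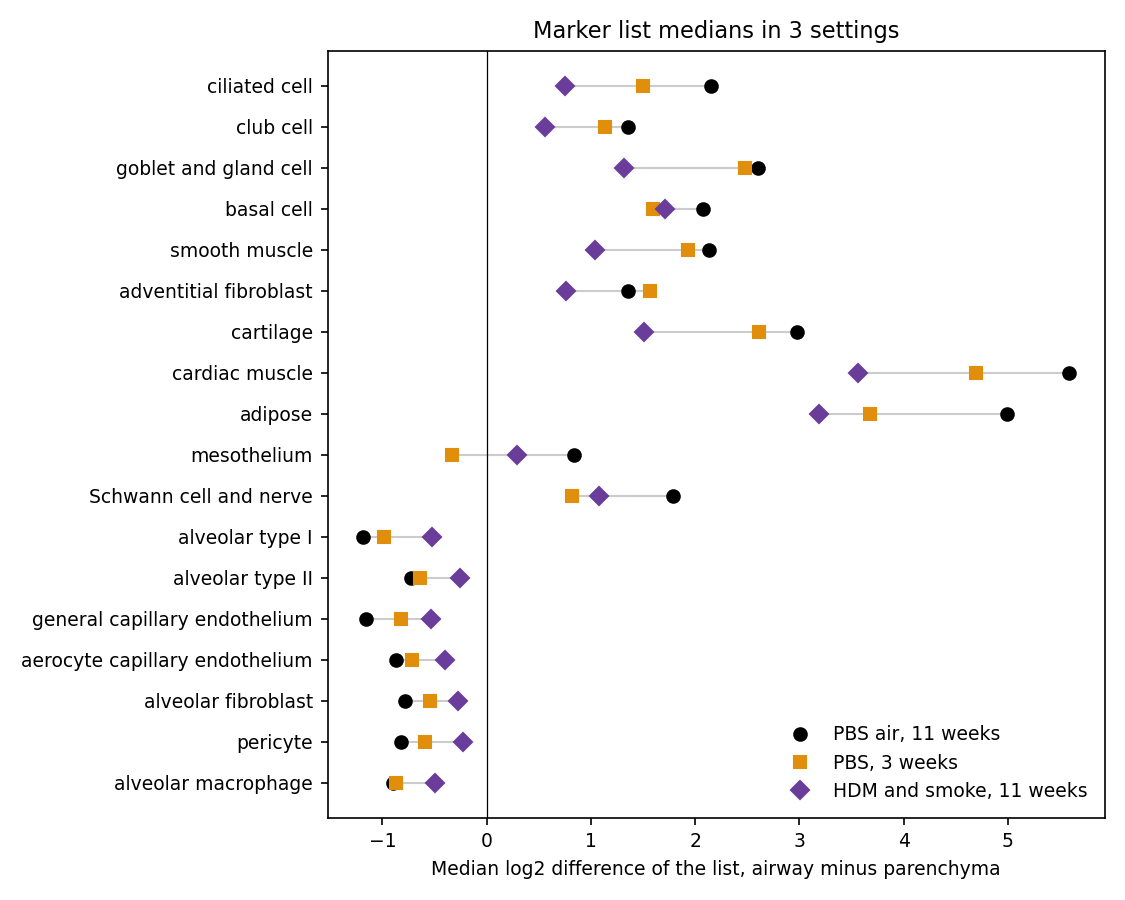
Median log2 difference (airway minus parenchyma) of each cell type list in 3 settings, 3-week PBS, 11-week PBS air and 11-week HDM plus smoke. Ciliated genes lie at 1.503, 2.15 and 0.75 in that order, and type I genes at -0.99, -1.19 and -0.53.

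Pigr averaged 412 CPM in airway and 94.6 CPM in parenchyma under PBS air, and 1500 and 1180 CPM under HDM and smoke, so its difference of 2.16 became 0.34, a change of -1.82 ± 0.21 (adjusted p = 4.2e-11). The iron carrier Slc11a2 changed by -1.11, Dmkn, a secreted epidermal protein, by -1.89, the phospholipase Pla2g4a by -1.19 and Togaram2 by -1.41. Slpi, a protease inhibitor of mucosal fluids, had differences of opposite sign. It averaged 23.8 CPM in airway and 44.6 CPM in parenchyma under PBS air and 910 and 405 CPM under HDM and smoke, so that -0.88 became 1.09, a change of 1.98 ± 0.32 (adjusted p = 8.8e-07). Cntn1, a neural adhesion molecule, went from -0.47 to 0.81. The plasma cell regulator Prdm1, at -1.05 and 0.10, the chemokine receptor Cxcr4, at -0.98 and 0.03, and the receptor kinase Ros1, at -1.26 and 0.38, were higher in parenchyma under PBS air, and under HDM and smoke their differences did not pass the adjusted p.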

How the data were processed

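The deposited table holds estimated counts per gene and library, made by the authors from 100 bp single reads. The submitters' processing notes name bcl2fastq 2.20.0.422, STAR 2.5.1b, RSEM 1.2.31, kallisto 0.44.0 and mm10; which of these made the table, and its strand setting, are not given in the sources used here. Values were rounded (20.3% of non-zero values were not whole) and symbols matched to GENCODE M21 by ID, ignoring the version (42462 of 43346).

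Genes with at least 0.353 CPM, the equivalent of 10 counts, in at least 9 libraries were tested with limma 3.58.1 voom and edgeR 4.0.16 TMM factors in R 4.3.3. The fit held all 160 libraries and 16 groups at 11 weeks, and comparisons with 3 weeks used 203 libraries and 20 groups. p-values were two-sided. Changes in simulated counts for 18250 genes were scored by the adjusted p, without the size limit of a call. For the compartment test and the test of a difference between contrasts, every gene had the same dispersion, and no change was placed in genes of low count. The compartment test recovered 99% of 2-fold and 100% of 4-fold changes, and 4.33% of the genes that passed were unchanged ones. The test of a difference between contrasts recovered 85% and 100%, and 5.13% of the genes that passed were unchanged ones. Recovery in genes of low count was not tested. Recovery under the full rule of a call, or under shifts in tissue composition shared by many genes, was not tested. The spread test recovered none of 200 wider genes at the adjusted p and 68.9% of 4000. Where parenchyma libraries held at most 3 counts each, the fold is a lower bound from that floor and carries no interval. The SE values come from the spread between libraries in the fit, and the SD values from that between the 10 libraries of a group. The labels do not say which airway and parenchyma libraries share a mouse, nor name separate animals, so p-values measure the spread between these libraries. No 2 libraries were alike within sampling noise.

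Named genes are the 10 largest non-overlapping protein-coding calls in each direction with at least 1 CPM, the 10 highest by TPM in each compartment, the first 4 and largest members of each list, and the 5 smallest p of each further test, with other members where a sentence needed them. The members and the gene lists were chosen with earlier results of these data known. Alternatives included edgeR and DESeq2 1.42.0 tests, other scaling and filters, and each library left out; the closing section gives their effect. Some members of the lists were counted but are not named here.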

Additional observations from a re-analysis of the deposited data

Results flagged for a closer look

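Of the groups of 10 values examined for a library far from the other 9, 28 held one (17.7% of the groups), beside about 1 in 20 that chance gives for independent groups. These groups share libraries and related genes, so they are not independent and the shares cannot be set against each other as a test. In airway library X5 the summed CPM was 31386 for the goblet and gland list, 894 for the mesothelium list and 140 for the squamous list, and single genes stood out at 20715 CPM for Bpifa1, 6895 CPM for Scgb3a2 and 5643 CPM for Scgb3a1. In airway library X65 the sums were 3297 CPM for B and plasma cells, 755 CPM for T and NK cells and 282 CPM for thymocytes, with B2m, a part of MHC class I, at 1433 CPM. In parenchyma library X6 the sums were 27494 CPM for red blood cells and platelets and 53170 CPM for type II cells. There Sftpc had 21859 CPM, Hbb-bs 15503 CPM, Hba-a1 5888 CPM, Hba-a2 4480 CPM and Kcnj3 0.128 CPM, and Col4a3 was low at 181.05 CPM. In parenchyma library X126 the sums were 234 CPM for ionocytes, 3164 CPM for alveolar macrophages and 1608 CPM for B and plasma cells, the receptor list was low at 2586 CPM, and Scgb3a1 had 290 CPM. In parenchyma library X166 the neutrophil sum was 1073 CPM, and Mb had 0.849 CPM, Pck1 0.460 CPM, Nppa 2.09 CPM and Sln 0.672 CPM.

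The compartment difference itself differed between groups for 20 named genes, by the limma test of that difference. From 3-week PBS to 11-week PBS air it changed by 1.21 for B3gnt4, 1.02 for 9130230L23Rik, 1.12 for Ccdc17, 1.54 for Fgf9, 1.2 for Rasgrf1, -2.22 for Rnaset2b, -1.06 for Pcdhgc3, -2.61 for Gm20425, -1.06 for Wasf3 and -1.32 for Pagr1b. From PBS air to HDM plus smoke it changed by 1.98 for Slpi, 1.15 for Prdm1, 1.02 for Cxcr4, 1.28 for Cntn1, 1.64 for Ros1, -1.11 for Slc11a2, -1.82 for Pigr, -1.89 for Dmkn, -1.19 for Pla2g4a and -1.41 for Togaram2. The causes were not tested.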

How the results depend on the processing

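The count of genes higher in airway (2448) was 945 among genes of at least 10 CPM and 1473 when tested against a log2 difference of 1, and 2304 to 2514 with 1 library left out. The count higher in parenchyma (495) moved more, to 259 among genes of at least 10 CPM, 290 with DESeq2, 1.3e+02 with quality weights on the 20 libraries alone (380 without weights), 3 when tested against 1, 305 without the 5 libraries that stand apart (X5, X65, X6, X126 and X166, chosen after seeing the data), and 321 to 577 with 1 library left out. Among genes of at least 10 CPM, differences of contrasts were 13 positive and 11 negative against 3 weeks, and 13 positive and 438 negative for HDM plus smoke. Genes wider in airway (38) were 12 with a prior count of 0.5, 881 by deviations from the mean and 5 to 86 with 1 library left out, and those wider in parenchyma (0) were 7 by deviations from the mean and 0 to 1. The causes were not tested.

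The numbers in the titles do not repeat between groups. With adjacent codes taken as pairs, the replicate block on the 20 libraries alone gave 2035 and 318 calls (1995 and 380 without it). Deviations of adjacent codes correlated at 0.0791 to 0.386, and 8 of 10 airway libraries correlated best with their adjacent code, as a hint from the data. The other alternatives, edgeR's quasi-likelihood test (2587 and 347), 20 libraries alone, DESeq2 size factors (2472 and 458), all libraries of the series (2440 and 573), no filter (3086 in airway) and TMM without attached tissue genes (2454 and 490), kept both counts within 1.5 times. Of 211 named genes none changed direction under any alternative run. By edgeR or DESeq2 Ucp1, Calca and Cd3e passed and Chrm3, S100a9, Cxcl15 and Gm28439 did not, each by at least 1 of these tests. Counts per list moved by more than 1.5 times in 61 of 92 list counts under at least 1 alternative. Depth limits genes below about 0.113 CPM in parenchyma, where 3 counts are reached.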
